A study of Mus musculus with 2 samples.

Results

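Endothelium, pericyte and blood-brain barrier genes were followed here in the mouse midbrain at embryonic day 10.5. The set holds 46 genes, listed by name for their known roles in vessels, and all 46 matched 1 gene each among the 43346 gene rows of the tables. By role they comprise 7 junction and surface proteins of endothelium, 10 endothelial receptors, 8 transcription factors, 10 ligands and secreted factors, 1 endothelial enzyme, 7 barrier and brain vessel genes and 3 pericyte genes. Total RNA-seq was made from healthy tissue of strain B6NCrl in 1 group of 2 libraries, with no treatment and no second genotype or age. Replicate 1 came from a pool of 69 embryos and replicate 2 from a pool of 51 embryos, male and female together, and each started from 10 ng of RNA longer than 200 nt with spike-in RNAs added. The design holds no contrast, so the results are levels, their spread over the 2 libraries, and ratios of replicate 1 over replicate 2, with no test and no p-value.

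Vessels of the neural tube sprout inward from a plexus on its surface, led by vascular endothelial growth factor (VEGF) from the neural tissue, which acts through VEGF receptors on endothelial cells. Angiopoietins acting on the receptor Tek steady the new vessels, and platelet-derived growth factor B from endothelium draws in pericytes, which carry its receptor. In the brain, a signal of the Wnt family leads endothelial cells to build the blood-brain barrier, in which tight junctions and efflux pumps are gained and openings of the vessel wall are lost. The midbrain at this age is early in that course.

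The 2 tables hold 45531592 expected counts in replicate 1 and 50477623 in replicate 2 over gene rows, after leaving out spike-in and tRNA rows. A level is given in TPM, a unit that divides reads by transcript length and scales each library to a fixed total, so that levels of different genes can be compared. Gene positions are those of GENCODE M21 on GRCm38. A gene is called detected at 1 TPM or more in both libraries. Whether strand and RNAs without a poly(A) tail were kept is not known. Each pool counts as 1 sample, so the spread between them takes in both the embryos and the handling. In whole tissue, fewer cells of a type and less RNA per cell cannot be told apart.

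Promoter sequence was read for the receptors of VEGF, which stood at separate levels, and for 3 barrier genes that lay on both sides of the detection limit. The 250 bases before a RefSeq start of each gene were taken on GRCm38.p6 and are printed 5′ to 3′ on the strand of the gene. For Flt4 that start lies downstream of the first base of the GENCODE M21 gene, so all 250 bases shown are inside the M21 gene, and 3 of those shown for Kdr are inside it. Capitals mark the letters CNGGAAG on the strand printed, a core shared by sites of the ETS factors, to which Ets1, Erg and Fli1 belong. Kdr lies at chr5:75978456-75978705 on the minus strand, Flt1 at chr5:147726012-147726261 on the minus strand and Flt4 at chr11:49609429-49609678 on the plus strand. Cldn5 lies at chr16:18776597-18776846 on the plus strand, Mfsd2a at chr4:122961189-122961438 on the minus strand and Slco1c1 at chr6:141524104-141524353 on the plus strand.
Kdr: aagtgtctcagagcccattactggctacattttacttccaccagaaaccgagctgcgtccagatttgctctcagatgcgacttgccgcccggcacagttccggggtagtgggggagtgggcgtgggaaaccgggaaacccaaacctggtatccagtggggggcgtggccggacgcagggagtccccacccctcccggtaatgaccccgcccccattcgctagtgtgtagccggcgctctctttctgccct
Flt1: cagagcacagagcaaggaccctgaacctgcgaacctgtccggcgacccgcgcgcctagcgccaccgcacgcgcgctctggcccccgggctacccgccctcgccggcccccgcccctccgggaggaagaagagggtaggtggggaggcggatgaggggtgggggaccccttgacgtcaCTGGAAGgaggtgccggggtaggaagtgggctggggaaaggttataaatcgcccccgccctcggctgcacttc
Flt4: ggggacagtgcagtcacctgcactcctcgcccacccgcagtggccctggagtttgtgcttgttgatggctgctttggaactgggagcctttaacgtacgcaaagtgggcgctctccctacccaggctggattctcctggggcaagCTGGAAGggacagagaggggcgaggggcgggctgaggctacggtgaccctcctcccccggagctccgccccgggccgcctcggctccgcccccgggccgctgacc
Cldn5: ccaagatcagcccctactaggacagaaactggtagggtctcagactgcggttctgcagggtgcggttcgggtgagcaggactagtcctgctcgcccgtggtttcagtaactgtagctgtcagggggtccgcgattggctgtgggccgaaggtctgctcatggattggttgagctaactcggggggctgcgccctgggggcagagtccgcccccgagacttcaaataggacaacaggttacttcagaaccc
Mfsd2a: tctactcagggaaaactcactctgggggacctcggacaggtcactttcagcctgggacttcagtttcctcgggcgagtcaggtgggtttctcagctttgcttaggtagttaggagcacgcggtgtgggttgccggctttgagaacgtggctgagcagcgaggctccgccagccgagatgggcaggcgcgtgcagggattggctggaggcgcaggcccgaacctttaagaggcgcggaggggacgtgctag
Slco1c1: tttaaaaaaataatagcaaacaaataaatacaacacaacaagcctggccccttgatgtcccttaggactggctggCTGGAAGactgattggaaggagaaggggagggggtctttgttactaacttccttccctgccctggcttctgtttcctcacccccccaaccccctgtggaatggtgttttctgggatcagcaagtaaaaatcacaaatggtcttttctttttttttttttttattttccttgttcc

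Among these stretches, those of Flt1, Flt4 and Slco1c1 held 1 copy of CNGGAAG each, searched on both strands, and those of Kdr, Cldn5 and Mfsd2a held none. Copies thus stood before 2 detected genes and 1 under the detection limit, and none stood before the other 3 detected genes. A match is only a run of letters, and its absence says nothing of the factor. The stretch before Slco1c1 had a GC content of 42.8% and 0 CpG pairs, while the other 5 had GC contents of 59.6% to 70.4% and at least 12 CpG pairs. Over all members, 25 of the 46 matched a RefSeq promoter window of 300 bases, 34 windows in all. Motifs and GC content were read only in the 250 bases of each window that lie before the start. CNGGAAG was found in 13 of the 34 windows (38.2%), against 8733 of 32851 windows of all genes (26.6%). ACAANG, a core of SOX sites, was found in 38.2% of member windows and 36.3% of all windows. AGATAA, which GATA factors bind, was found in 8.82% of member windows and 9.99% of all windows, with no overlap counted between motifs. Member windows had a median GC content of 58.2%, against 52.4% over all windows, and several windows belong to 1 gene, so these shares are a description.

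Detection differed between the roles. Of the 46 members, 40 (86.96%) were detected, where 58.1% of 21474 protein-coding genes were. The median member had 8.765 TPM in replicate 1 and 7.56 TPM in replicate 2, against 3.965 TPM and 3.4 TPM for the median protein-coding gene in the same libraries. At least 10 TPM in both libraries was reached by 21 members (45.65%), where 38.2% of protein-coding genes reached it, and at least 20 TPM by 11 (23.91%), where 28.5% did. Members were thus more often detected than protein-coding genes at large, but not more often at 20 TPM or more. The list was chosen with earlier results of these data known, so these shares are a description only. The remaining 6 members were Pdgfb, Slco1c1, Cspg4, Rgs5, Abcb1a and Etv2. The genes that define endothelium, such as Cdh5, Pecam1, Kdr and Tie1, were all detected, so the tissue carried the endothelial part of the label. Of the pericyte and barrier groups only some genes were detected, 1 of 3 pericyte members and 5 of 7 barrier members. Those 5 include Plvap, a gene of leaky vessels that is lost as the barrier forms.

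**Figure D1:**
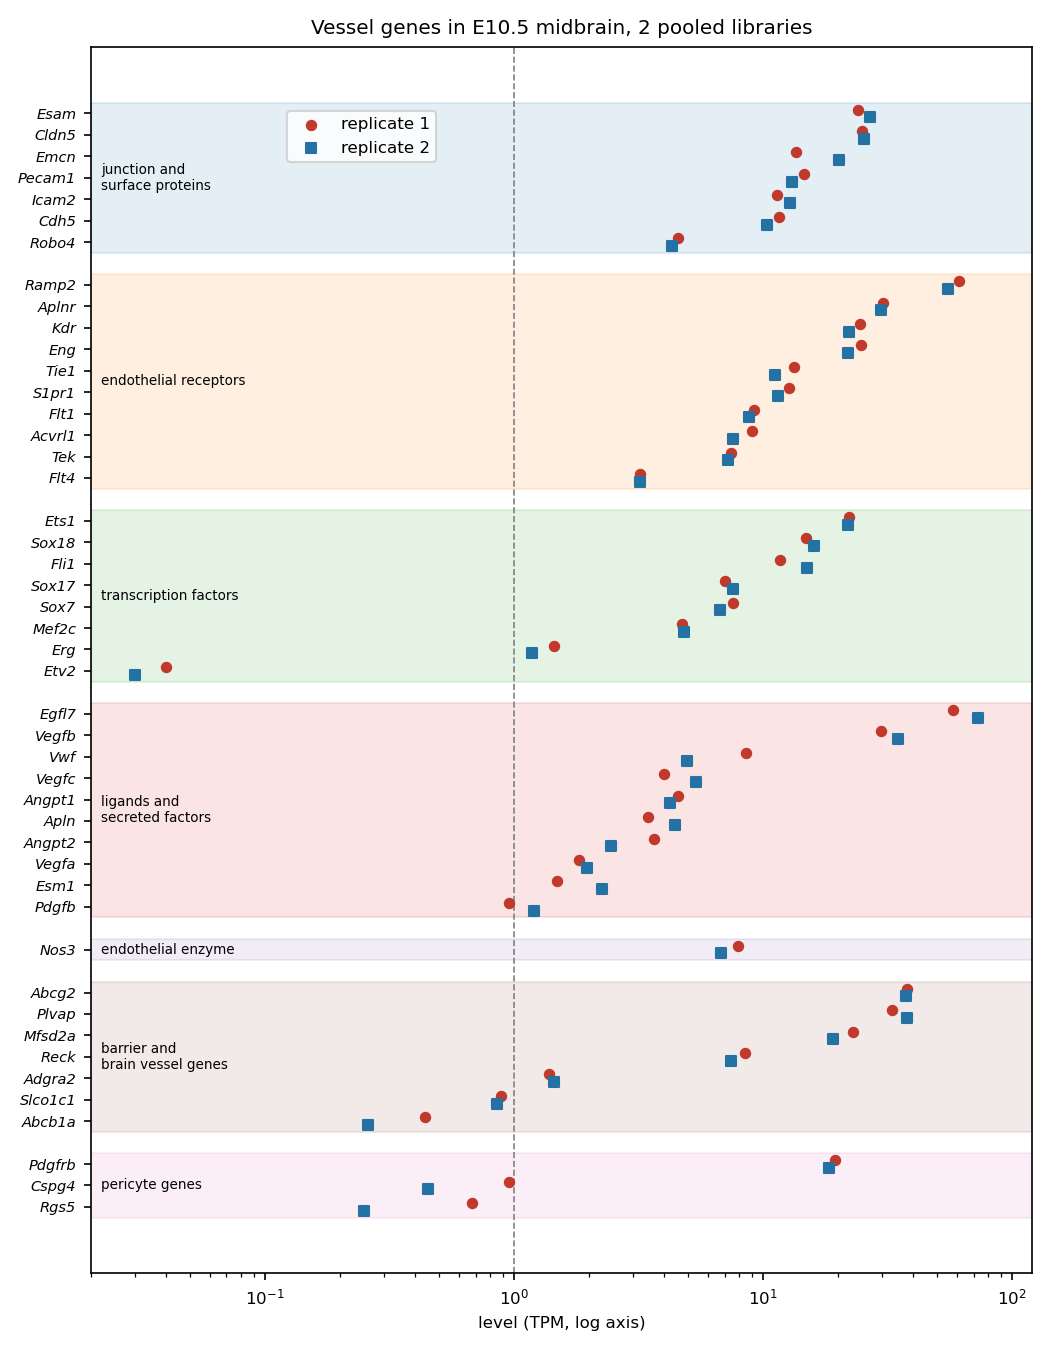
Level of each of the 46 members in TPM (log axis), with replicate 1 as circles and replicate 2 as squares, grouped by role and ordered by mean level within each role. The dashed line marks 1 TPM. The 2 marks of a gene mostly lie close together, the pericyte gene Pdgfrb stands far from Rgs5 and Cspg4, and Etv2 lies far below the rest.

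All 7 junction and surface proteins were detected, with a median over members of 13.54 TPM in replicate 1 and 13.0 TPM in replicate 2. Cdh5 (ENSMUSG00000031871.8, chr8:104101625-104144511), the VE-cadherin of endothelial adherens junctions, had 11.62 TPM in replicate 1 and 10.37 TPM in replicate 2. Pecam1, an adhesion molecule between endothelial cells, had 14.55 TPM in replicate 1 and 13.0 TPM in replicate 2. Esam, another adhesion molecule of endothelial contacts, had 24.13 TPM in replicate 1 and 26.76 TPM in replicate 2. Esam stood above Cdh5 and Pecam1 by more than any of these genes differed between the pools. Cldn5 (ENSMUSG00000041378.1, chr16:18776847-18778262), the claudin of brain endothelial tight junctions, had 24.97 TPM in replicate 1 and 25.44 TPM in replicate 2. Its single annotated transcript leaves no room for a split over isoforms, and its level lay above 74.08% of protein-coding genes. Icam2, an adhesion molecule that binds leukocytes, had 11.36 TPM in replicate 1 and 12.77 TPM in replicate 2. Robo4, a receptor that steadies endothelial contacts, had 4.57 TPM in replicate 1 and 4.3 TPM in replicate 2, the lowest of the 7. Emcn, a mucin-like sialoglycoprotein of the endothelial surface, had 13.54 TPM in replicate 1 and 20.18 TPM in replicate 2, and its libraries stood farther apart than those of the other 6.

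The 10 receptors were all detected, with a median over members of 13.02 TPM in replicate 1 and 11.29 TPM in replicate 2. Kdr (ENSMUSG00000062960.7, chr5:75932827-75978458), the main signalling receptor for VEGF, had 24.58 TPM in replicate 1 and 22.14 TPM in replicate 2. Flt1, which binds the same ligand and also occurs as a secreted trap for it, had 9.17 TPM in replicate 1 and 8.78 TPM in replicate 2. Flt4, the receptor of VEGF-C, had 3.21 TPM in replicate 1 and 3.2 TPM in replicate 2. The order of Kdr over Flt1 over Flt4 was the same in both libraries, with no overlap between the genes. Within a library, the level of Kdr was 2.68 times that of Flt1 in replicate 1 and 2.522 times in replicate 2. Those levels take in all forms, and coding forms held 52.84% of Flt1 TPM in replicate 1 and 55.53% in replicate 2. For Kdr they held 99.72% and 98.87% in the same libraries.

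Tie1, an orphan receptor that works with Tek, had 13.33 TPM in replicate 1 and 11.16 TPM in replicate 2. Tek, the receptor of the angiopoietins, had 7.44 TPM in replicate 1 and 7.22 TPM in replicate 2. The level of Tek was thus 0.5581 times that of Tie1 in replicate 1 and 0.647 times in replicate 2, so Tie1 led in both. Eng, a co-receptor for ligands of the BMP and TGF-beta family, had 24.78 TPM in replicate 1 and 21.82 TPM in replicate 2. Acvrl1, the signalling receptor of that pair, had 9.02 TPM in replicate 1 and 7.54 TPM in replicate 2, below Eng in each library. Aplnr, the receptor of apelin, had 30.21 TPM in replicate 1 and 29.83 TPM in replicate 2. S1pr1, a receptor of sphingosine-1-phosphate that restrains sprouting, had 12.71 TPM in replicate 1 and 11.43 TPM in replicate 2. Ramp2, a partner of the adrenomedullin receptor, had 60.98 TPM in replicate 1 and 55.39 TPM in replicate 2. Over all its forms it was the highest receptor gene. Coding forms held 47.03% of its TPM in replicate 1 and 46.67% in replicate 2, against 100% for Aplnr. Ramp2 shares 1103 exon bases with Vps25 on the same strand, a gene at 115.75 TPM in replicate 1 and 121.62 TPM in replicate 2. How the authors' counting split reads between them is therefore uncertain.

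Of the 8 transcription factors, 7 were detected. Ets1, of the ETS family, was the highest, with 22.15 TPM in replicate 1 and 21.86 TPM in replicate 2. Fli1, of the same family, had 11.72 TPM in replicate 1 and 14.93 TPM in replicate 2. Erg, another of the family that maintains endothelial identity, had 1.44 TPM in replicate 1 and 1.18 TPM in replicate 2, on 85 and 84 expected counts. The ETS factors therefore spread over a wide range of levels, and the order of Ets1, Fli1 and Erg was the same in both libraries. Etv2 (ENSMUSG00000006311.8, chr7:30633616-30635852), the ETS factor that starts the endothelial lineage in the early embryo, had 0.04 TPM in replicate 1 and 0.03 TPM in replicate 2, which is 1 expected count in each. A single count in each library gives no level.

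Among the SOX factors of endothelium, Sox18 had 14.89 TPM in replicate 1 and 15.95 TPM in replicate 2. Sox17, tied to arterial fate, had 7.03 TPM in replicate 1 and 7.58 TPM in replicate 2. Sox7, which overlaps with both in function, had 7.57 TPM in replicate 1 and 6.72 TPM in replicate 2. Sox7 and Sox17 overlapped in level, and Sox18 stood above them in both libraries. The level of Sox17 was 0.4721 times that of Sox18 in replicate 1 and 0.4752 times in replicate 2. Mef2c, a MADS-box factor of vessels, heart and neurons, had 4.71 TPM in replicate 1 and 4.79 TPM in replicate 2.

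The ligands and secreted factors lay lower, with a median over their 10 members of 3.805 TPM in replicate 1 and 4.31 TPM in replicate 2, although the highest member of the whole set was among them. That gene was Egfl7 (ENSMUSG00000026921.14, chr2:26580014-26593120), a matrix protein secreted by endothelial cells that hosts the microRNA Mir126a, with 58.0 TPM in replicate 1 and 72.93 TPM in replicate 2. Among the VEGF genes, Vegfa (ENSMUSG00000023951.12, chr17:46016993-46032369), the chief attractant of sprouts, had 1.83 TPM in replicate 1 and 1.96 TPM in replicate 2. Vegfb, a ligand of Flt1, had 29.73 TPM in replicate 1 and 34.7 TPM in replicate 2. Vegfb was thus far above Vegfa in each library. Vegfc, the ligand of Flt4 in lymphatic growth, had 3.98 TPM in replicate 1 and 5.35 TPM in replicate 2. The level of Kdr was 13.43 times that of Vegfa in replicate 1 and 11.3 times in replicate 2. The deposited credible interval of Vegfa ran from 1.932 to 3.115 TPM in replicate 1 and from 1.955 to 2.986 TPM in replicate 2, so the level itself lay below the interval in replicate 1 and near its lower end in replicate 2. With the deposited posterior mean in place of the level, the mean Kdr to Vegfa ratio was 9.27, against 12.36.

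Angpt1, the angiopoietin that activates Tek, had 4.57 TPM in replicate 1 and 4.21 TPM in replicate 2. Angpt2, which mostly opposes it, had 3.63 TPM in replicate 1 and 2.45 TPM in replicate 2. Coding forms held 64.19% of that level in replicate 1 and 59.18% in replicate 2, against 100% for Angpt1. Angpt1 was higher than Angpt2 in both libraries, 1.259 times in replicate 1 and 1.718 times in replicate 2, and the size of that difference moved more than for the receptor pairs. Apln, the apelin ligand of Aplnr, had 3.44 TPM in replicate 1 and 4.41 TPM in replicate 2, well below its receptor. Esm1, a proteoglycan of the leading tip cells, had 1.48 TPM in replicate 1 and 2.25 TPM in replicate 2. Vwf, the clotting factor stored in endothelial cells and platelets, had 8.51 TPM in replicate 1 and 4.94 TPM in replicate 2. Its libraries were apart by more than those of any other detected member on the ratio scale. Nos3, the endothelial nitric oxide synthase, had 7.89 TPM in replicate 1 and 6.75 TPM in replicate 2.

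Pdgfb (ENSMUSG00000000489.6, chr15:79995874-80014977), the endothelial ligand that draws in pericytes, had 0.95 TPM in replicate 1 and 1.2 TPM in replicate 2, one library on each side of the detection limit. Pdgfrb (ENSMUSG00000024620.7), its receptor on pericytes and mesenchyme, had 19.39 TPM in replicate 1 and 18.35 TPM in replicate 2. The level of Pdgfrb was 20.41 times that of Pdgfb in replicate 1 and 15.29 times in replicate 2. It was also 1.669 times that of Cdh5 in replicate 1 and 1.77 times in replicate 2. The other pericyte members were low. Rgs5, a regulator of G-protein signals in mature pericytes, had 0.68 TPM in replicate 1 and 0.25 TPM in replicate 2. Cspg4, the NG2 proteoglycan of pericytes and glial precursors, had 0.95 TPM in replicate 1 and 0.45 TPM in replicate 2. Pdgfrb thus stood apart from the other pericyte members, and the head mesenchyme markers Col3a1 (416.36 TPM in replicate 1 and 316.74 TPM in replicate 2) and Col1a1 (149.3 TPM in replicate 1 and 72.56 TPM in replicate 2) were present in the same tissue. Their part in the Pdgfrb level was not tested.

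Barrier genes were split between well-expressed and barely detected members. Abcg2, an efflux pump of brain endothelium that other cells also carry, had 37.73 TPM in replicate 1 and 37.39 TPM in replicate 2. Mfsd2a (ENSMUSG00000028655.7, chr4:122946850-122961188), the lipid transporter that holds down transcytosis across the barrier, had 22.96 TPM in replicate 1 and 19.14 TPM in replicate 2. Reck, which with Adgra2 receives the Wnt7 signal in brain endothelium, had 8.49 TPM in replicate 1 and 7.42 TPM in replicate 2. Adgra2, also called Gpr124, had 1.38 TPM in replicate 1 and 1.44 TPM in replicate 2, so its level lay well under that of its partner. Plvap (ENSMUSG00000034845.5, chr8:71497765-71511752), which forms the diaphragms of leaky vessels and is lost as the barrier forms, had 33.0 TPM in replicate 1 and 37.93 TPM in replicate 2. The level of Cldn5 was 0.7567 times that of Plvap in replicate 1 and 0.6707 times in replicate 2, so the gene of leaky vessels led in both libraries.

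Slco1c1 (ENSMUSG00000030235.13, chr6:141524368-141570177), the thyroid hormone carrier of brain endothelium, had 0.89 TPM in replicate 1 and 0.85 TPM in replicate 2. Abcb1a (ENSMUSG00000040584.8, chr5:8660077-8748575), the P-glycoprotein pump of the mature barrier, had 0.44 TPM in replicate 1 and 0.26 TPM in replicate 2. Both genes stayed under the detection limit in each library. Abcb1a has a near copy, Abcb1b, with 0.22 TPM in replicate 1 and 0.43 TPM in replicate 2, and the counting could split reads between them. On summed counts the 2 copies held 88.83 in replicate 1 and 85.5 in replicate 2, a scaled ratio of 1.124 (counting interval 0.823 to 1.524), whereas Abcb1a alone gave 2.677 (1.662 to 4.456) and Abcb1b alone 0.4872 (0.2926 to 0.7649). The deposited credible interval of Abcb1a reached from 0.4308 to 3.912 TPM in replicate 1 and from 0.2024 to 3.313 TPM in replicate 2, so its own level is poorly fixed.

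Ranked by mean level, the 46 members made 45 neighbouring pairs, of which 11 had ranges over the 2 libraries that did not overlap and 34 did not differ beyond that spread. Egfl7 and Ramp2 led, followed after a gap by a run of Abcg2, Plvap, Vegfb and Aplnr. Esam, Kdr, Pecam1, Flt1, Mef2c, Flt4, Vegfa, Adgra2, Slco1c1 and Etv2 each also lay below their next higher neighbour without overlap. Only neighbours were compared, and genes farther apart in rank could still overlap. Emcn, ranked above Pecam1 but not next to it, had 13.54 TPM in replicate 1, within the Pecam1 range of 13.0 to 14.55 TPM. In the other 34 pairs the order of neighbours is not fixed by these 2 libraries.

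The pools agreed closely for most members. Counts were scaled by library (TMM) and a ratio of replicate 1 over replicate 2 was taken for the 41 members whose mean reached 1 TPM, with an exact 95% binomial interval that covers counting error only. None of the 41 differed by 2-fold or more between libraries, where 3.22% of 14768 genes did, and the count was also 0 with DESeq2 size factors, with TPM ratios and with posterior mean counts. At 1.5-fold, 3 members were past the limit, against 9.6% of all genes. One was higher in replicate 1, where 6.53% of genes were, and 2 were lower in it, where 3.07% were. The ratio lay within 20% of equality for 29 of the 41 members, and for 69.33% of all genes tested. Of the 41, 17 were higher in replicate 1 and 24 lower, and the median log2 ratio was -0.059, against -0.006 over all genes. By these measures the members were spread between libraries much as other genes were.

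The member past 1.5-fold and higher in replicate 1 was Vwf, with a ratio of 1.68 (counting interval 1.523 to 1.856). Those lower in replicate 1 were Esm1 at 0.6248 (0.4731 to 0.8168) and Emcn at 0.6603 (0.596 to 0.7306). Angpt2 came close, at 1.491 (1.232 to 1.811). Ligands and secreted factors held both the highest and the lowest ratio among the 41 members, those of Vwf and Esm1. In that group 7 of 10 were lower in replicate 1, where 51.1% of all genes tested were, and the median ratio was 0.7825. Within it, Egfl7 had a ratio of 0.7536 (0.7044 to 0.806), Vegfc 0.7038 (0.5877 to 0.8399) and Apln 0.7375 (0.6357 to 0.8539). Among groups with several detected members the receptors were the closest, with every ratio between that of Flt4, 0.944 (0.8425 to 1.057), and that of Tie1, 1.116 (1.038 to 1.2). The counting interval left out a ratio of 1 for 20 of the 41 members, and for 56.9% of all genes tested, so the pools differed by more than counting error for many genes.

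Members whose mean lay under 1 TPM differed in how far their libraries were apart. Rgs5 had a ratio of 2.6 (1.728 to 4.062) on 80 and 33 expected counts, and Cspg4 a ratio of 1.981 (1.583 to 2.498) on 222 and 121, in replicate 1 and replicate 2. Slco1c1 had a ratio of 0.9911 (0.716 to 1.369), and Abcb1a and its copy together are given above. With every gene of any count included, 2 members, Rgs5 and Abcb1a, were past 2-fold, where 20.9% of 24725 genes were.

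**Figure D2:**
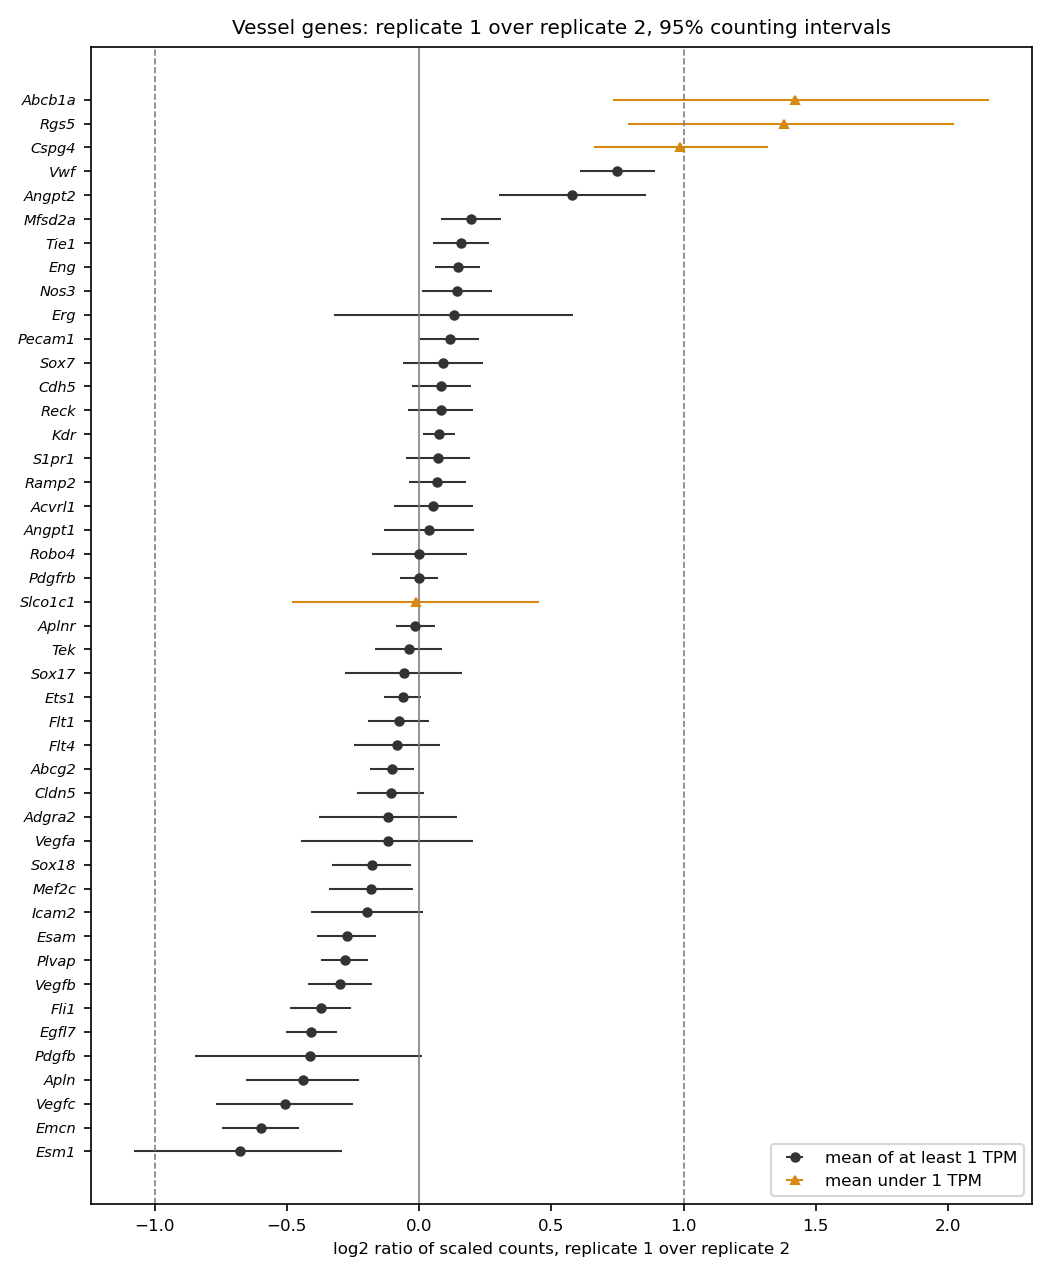
Log2 ratio of scaled counts, replicate 1 over replicate 2, for 45 members (Etv2, with 1 count in each library, is left out), ordered by ratio. Bars are 95% counting intervals, circles are genes whose mean reached 1 TPM, triangles the rest, and dashed lines mark 2-fold. Vwf and Angpt2 stand to the right of the other circles, Esm1 and Emcn lie at the left end, and no circle lies past a dashed line.

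Transcript tables show which forms made up these levels. More than 1 transcript was annotated for 33 members, of which 30 had the same leading transcript in both libraries. In 9 of the 33 the leading form held at least 90% of the TPM of the gene in both, as for Kdr, with 99.72% in replicate 1 and 98.87% in replicate 2. In 7 it held under 50% on average, namely Flt1, Ramp2, Sox17, Erg, Vegfa, Egfl7 and Vwf.

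Flt1 was the VEGF receptor with the most divided level. Its leading form by TPM was Flt1-201, a processed transcript of 2049 nt, with 42.14% of TPM in replicate 1 and 42.42% in replicate 2. By expected counts that form held 19.16% in replicate 1 and 18.54% in replicate 2, since short transcripts weigh more in TPM. The coding form Flt1-202, of 6895 nt, held 28.71% of TPM in replicate 1 and 30.9% in replicate 2, and 45.63% and 47.15% of counts in the same libraries. The coding form Flt1-203, of 6292 nt, held 24.13% of TPM in replicate 1 and 24.63% in replicate 2. The division among the Flt1 forms was therefore nearly the same in both pools, but which form leads depends on the unit.

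Vegfa was divided mainly between 2 forms. Vegfa-201 held 46.15% of TPM in replicate 1 and 38.78% in replicate 2, and Vegfa-211 held 39.56% in replicate 1 and 36.22% in replicate 2. Ramp2-205, a retained intron form, held 37.96% of TPM in replicate 1 and 39.68% in replicate 2, and coding forms of Ramp2 held 47.03% in replicate 1 and 46.67% in replicate 2. For Vwf, a transcript of 8817 nt that has no entry in GENCODE M21 held 39.37% of TPM in replicate 1 and 36.23% in replicate 2, but 83.23% and 79.11% of expected counts. The short Vwf-209, of 456 nt, held 36.55% of TPM in replicate 1 and 30.57% in replicate 2, but 3.169% and 2.724% of counts. The gene level of Vwf in TPM thus rests in large part on short forms with few reads, while its ratio between libraries, taken on counts, rests on the long form.

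In 3 members the leading form differed between libraries. Sox17-202 led in replicate 1, with 28.17% against 24.74% in replicate 2, and Sox17-204 led in replicate 2, with 27.17% in replicate 1 and 29.21% in replicate 2. Egfl7-202 led in replicate 1, with 25.8% against 21.61% in replicate 2, and Egfl7-216 led in replicate 2, with 11.3% in replicate 1 and 22.72% in replicate 2. The highest share of any Erg form was 23.61% in replicate 1, where 2 forms tied, and 25.21% in replicate 2, on few counts. These shares are model estimates over forms that overlap in sequence.

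**Figure D3:**
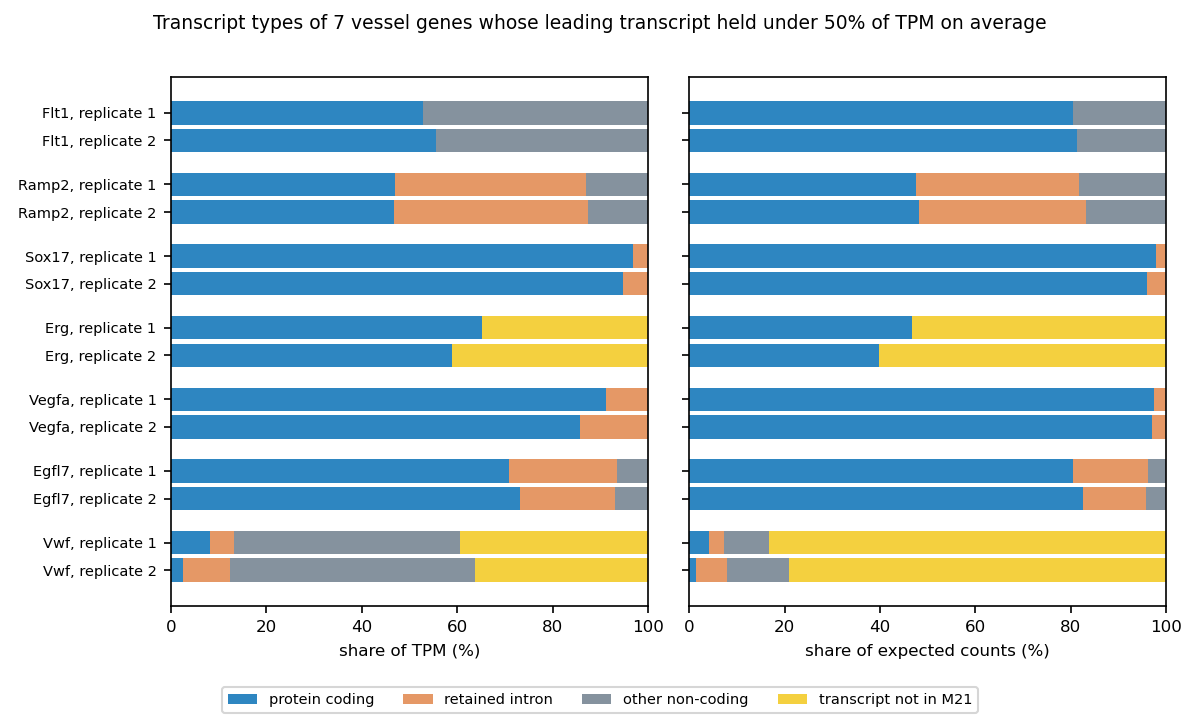
Share of each transcript type in the 7 members whose leading transcript held under 50% of TPM on average, by TPM (left, %) and by expected counts (right, %), replicate 1 above replicate 2 for each gene. Coding forms of Flt1 take 52.84% of TPM in replicate 1 and 55.53% in replicate 2, but 80.55% and 81.38% of counts, and Vwf changes most between the units.

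Other vessel genes, in 8 lists with no member among them, showed how far the pattern went. Their detected counts stand beside the 58.1% of all protein-coding genes that were detected. Of 17 further endothelial genes 15 were detected, led by Cd34, a surface sialomucin, with 43.52 TPM in replicate 1 and 47.77 TPM in replicate 2. Gpr182 was the lowest, with 0.34 TPM in replicate 1 and 0.28 TPM in replicate 2. Of 6 VEGF family genes and co-receptors 5 were detected, and the co-receptor Nrp1 had 10.14 TPM in replicate 1 and 9.7 TPM in replicate 2. All 6 endothelial Notch genes were detected, and Dll4, the Notch ligand of tip cells, had 4.83 TPM in replicate 1 and 4.86 TPM in replicate 2. The 6 arterial genes and 5 of 7 lymphatic and venous genes were detected too. Efnb2, the arterial ephrin, had 12.45 TPM in replicate 1 and 13.3 TPM in replicate 2, and Ephb4, its venous receptor, had 25.37 TPM in replicate 1 and 24.62 TPM in replicate 2. Genes listed for both vessel sides were therefore present in the same tissue. Whole tissue does not show which cells carried these genes or the Notch genes.

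The Wnt7 signal to brain vessels had all 11 genes detected. Its highest gene, Tnfrsf19, had 54.07 TPM in replicate 1 and 62.54 TPM in replicate 2, and Lef1, a nuclear partner of beta-catenin, had 53.27 TPM in replicate 1 and 51.7 TPM in replicate 2. All 13 further barrier genes were detected as well. Slc2a1, the glucose carrier of the barrier and of red cells, had 189.77 TPM in replicate 1 and 246.79 TPM in replicate 2. Ocln, the tight-junction protein occludin, was the lowest, with 1.27 TPM in replicate 1 and 1.0 TPM in replicate 2. Both lists hold genes that neural and blood cells also express, so their levels are not those of endothelium alone.

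Of 14 further pericyte and mural genes 9 were detected (64.29%), a share near the 58.1% of all protein-coding genes. Vtn, vitronectin, had 98.35 TPM in replicate 1 and 101.49 TPM in replicate 2, and Notch3 had 22.4 TPM in replicate 1 and 18.47 TPM in replicate 2. Acta2, smooth muscle actin, had 32.1 TPM in replicate 1 and 18.19 TPM in replicate 2. Myh11, the smooth muscle myosin, had 0.16 TPM in replicate 1 and 0.02 TPM in replicate 2, and Higd1b, a pericyte gene of adult brain, had 0.09 TPM in replicate 1 and was listed at 0 in replicate 2. Here too, well-detected genes stood beside genes near 0, and whole tissue does not show which cells carried the genes of this list. Among the 11 of the list whose mean reached 1 TPM, Kcnj8, at a ratio of 2.417, and Des, at 0.4692, were past 2-fold, in opposite directions. Over all genes, 3.22% of 14768 were past 2-fold, and Kcnj8 and Des were named after their values were seen. Myh11, under that level, had a ratio of 7.573 (2.964 to 32.69) on 31 and 4 expected counts in replicate 1 and replicate 2.

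Ratios of markers of other cells of the tissue are given beside those of all 14768 genes tested. Of these genes, 7228 were higher in replicate 1 and 7540 lower, with a median ratio of 0.9957. All 10 erythroid markers were lower in replicate 1, with a median ratio of 0.8233 and a summed level of 11380 TPM in replicate 1 and 13320 TPM in replicate 2. Of 10 macrophage markers, 9 were higher in replicate 1, with a median ratio of 1.447 and a sum of 95.95 TPM in replicate 1 and 64.6 TPM in replicate 2. The 8 head mesenchyme markers summed to 822 TPM in replicate 1 and 569.2 TPM in replicate 2. Of these 8, 6 were higher in replicate 1 and 2 lower, with a median ratio of 1.271. The 8 neuroepithelium markers summed to 2891 TPM in replicate 1 and 2385 TPM in replicate 2. The largest part was Vim, with 1047.05 TPM in replicate 1 and 957.82 TPM in replicate 2. Whole tissue does not show which cells carried it. The median ratio of the 8 markers was nearer to equality, at 1.097, with 7 higher in replicate 1 and 1 lower. Of 8 platelet and megakaryocyte markers, which share Vwf with endothelium, 6 were detected, and all 8 summed to 80.26 TPM in replicate 1 and 63.34 TPM in replicate 2. Most of that sum was Pf4, with 56.38 TPM in replicate 1 and 42.24 TPM in replicate 2, and of the 7 with a ratio 3 were higher in replicate 1 and 4 lower, with a median ratio of 0.9732. No marker of these lists was at 0 in both libraries. Their part in the ratios of Vwf, Esm1, Emcn, Rgs5 and Cspg4 was not tested.

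**Figure D4:**
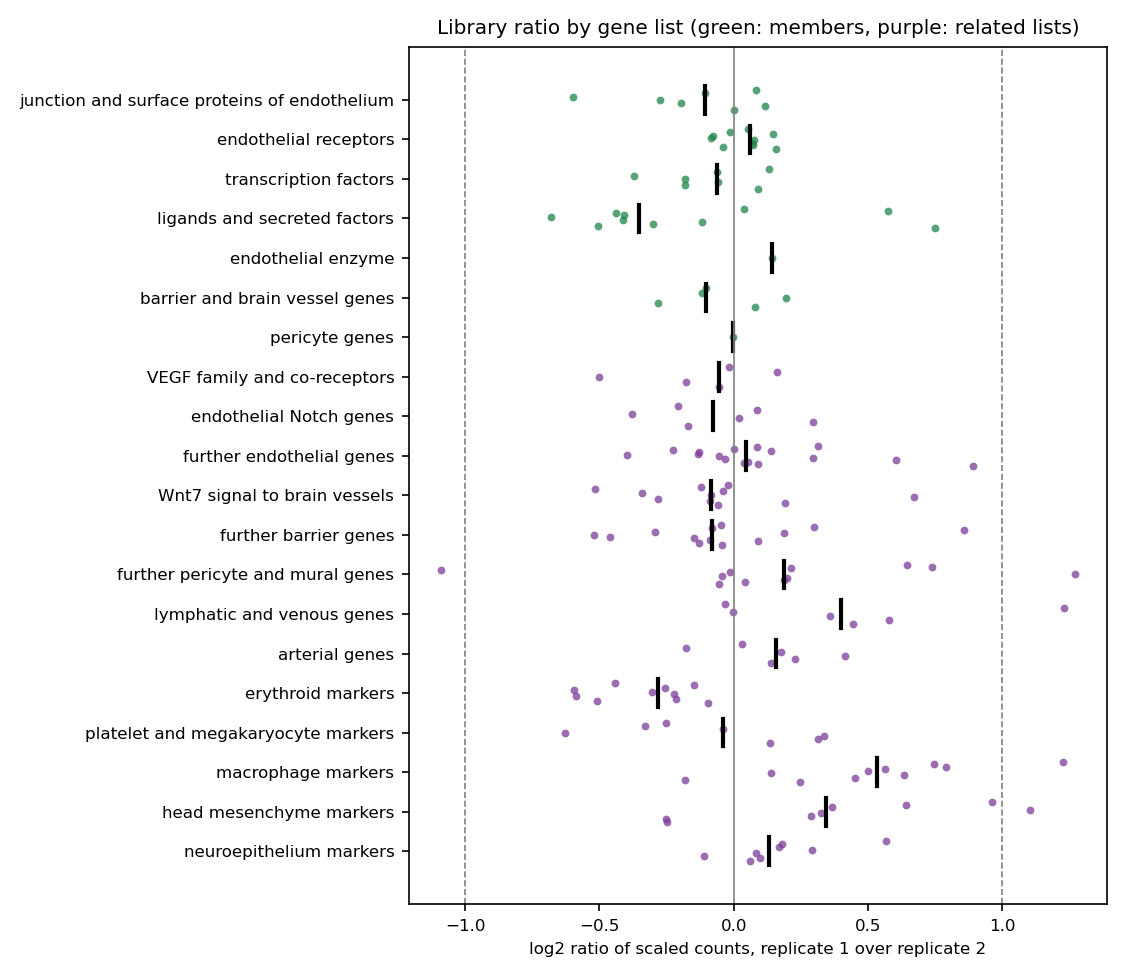
Log2 ratio of scaled counts, replicate 1 over replicate 2, for genes whose mean reached 1 TPM, in the 7 role groups of members (green) and 13 related lists (purple). Each dot is a gene, black bars are medians and dashed lines mark 2-fold. The erythroid dots all lie left of 0 and most macrophage dots lie right of it, while the medians of the member groups stay between -0.354 for ligands and secreted factors and 0.143 for the single endothelial enzyme.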

How the data were processed

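Each library had 1 gene and 1 transcript table, on mm10 with GENCODE M4 per the file headers. Neither aligner nor quantifier is named: not given in the sources used here. Reads that match several transcripts are shared among them in the deposited expected counts, which can be fractional. Those counts, scaled by effective length and library, are the deposited TPM and FPKM values. Lower and upper bounds of a TPM credible interval were deposited as a further signal, with no stated level. The deposited isoform percent was not used, and transcript shares were computed here from TPM and counts.

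Rows of 97 spike-ins (3.388% of counts in replicate 1 and 3.28% in replicate 2) and 26248 tRNA rows were left out. Gene names and coordinates came from GENCODE M21 on the same assembly. Counts were scaled by TMM (edgeR 4.0.16), with factors of 1.012 in replicate 1 and 0.9878 in replicate 2, and DESeq2 1.42.0 size factors were an alternative. Ratios add 0.5 to each count and were fitted to no model, since each side holds 1 library. The code for the ratios was checked on simulated counts, which says nothing of these libraries. All members are named, with up to 3 highest and 2 lowest genes of each related list. Kcnj8, Des and the ratios singled out were chosen after their values were seen. Members and lists were chosen with earlier results of these data known.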

Additional observations from a re-analysis of the deposited data

How the results depend on the processing

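Median levels scale with the unit. In FPKM the median was 5.135 over all members, 8.715 for junction proteins, 7.69 for receptors, 4.575 for transcription factors, 2.635 for ligands and secreted factors, 4.63 for the endothelial enzyme and 5.035 for barrier genes, since FPKM has another total than TPM. Over members whose mean reached 1 TPM the median was 10.99 TPM for all, 21.05 TPM for barrier genes and 18.87 TPM for the only pericyte gene left, by construction. With 1 library left out, the junction median was 13.0 to 13.54 TPM, against 13.78 TPM. Members past 2-fold were 2 with no level filter and 3 at 1.5-fold, against 0. With posterior mean TPM, the Kdr to Vegfa ratio was 9.27 and the Sox17 to Sox18 ratio 0.4884, and the cause was not tested. The number detected was 42 at 0.5 TPM, 36 at 2 TPM, 28 at 5 TPM and 37 at 1 FPKM. The share of all protein-coding genes at these limits was not computed, so these counts are a description. No paired analysis was possible because there is 1 group. With 2 pools, no difference between libraries can be tested.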
